A study of Mus musculus with 55 samples.

Results

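The inhibitor of DNA binding genes Id1, Id2 and Id3, the E-protein genes Tcf3, Tcf4 and Tcf12, and the HMG-box factor genes Tcf7 and Lef1 were followed through RNA-seq of sorted mouse bone marrow. These 8 genes were chosen by symbol, and all of them were found among the 55421 genes of the first count table and the 35976 of the second. The first set held 46 libraries of 6 populations from WT mice and from mice labelled Tet2 knockout (Tet2-/-), with 4 libraries per population and genotype except 3 for WT LT-HSC and 3 for WT ST-HSC. The second set held 9 LT-HSC libraries, 3 each labelled WT, Sting knockout (Sting-/-) and Tet2/Sting double knockout (DKO). All mice were C57BL/6. The Tet2-/- mice carried Tet2 f/f and Mx1-Cre, an interferon-inducible Cre that poly(I:C) switches on in blood cells and also in other tissues, and were kept for months after the injections. The DKO mice carried Tet2 f/f, Mx1-Cre and the Sting-/- alleles. Whether the WT and Sting-/- mice of these libraries received poly(I:C), and the age at collection of each mouse, are not given in the labels. The long-term (LT-HSC) and short-term (ST-HSC) stem cells were sorted as lineage-negative cKit+ Sca1+ CD48- cells with and without CD150. Common myeloid (CMP), granulocyte-macrophage (GMP) and megakaryocyte-erythroid (MEP) progenitors were lineage-negative cKit+ Sca1- cells split by CD34 and CD16/32, and common lymphoid progenitors (CLP) were lineage-negative cKit+ Sca1int CD127+ cells. The lineage antibodies were against B220, CD4, CD5, CD8, Gr1 and Ter119, which mark B, T, myeloid and erythroid cells. The labels give 200 cells per library. The study counts mice in its account of the expression data of all 6 populations, and the labels name no mouse for any library, so where libraries share a mouse the p-values measure only the spread between these libraries.

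E proteins are basic helix-loop-helix transcription factors that bind E-box DNA as dimers and drive lymphoid genes, cell cycle exit and, with Tal1 or Lyl1, stem cell and erythroid programmes. Id proteins have the helix-loop-helix but lack the basic region, so a dimer of an Id and an E protein does not bind DNA. Id1 and Id3 are classical targets of BMP and TGF-beta signals, while Id2 is required for natural killer and other innate lymphoid cells. Tcf7 and Lef1 share only the letters of their names with the E proteins: they are the TCF/LEF partners of beta-catenin in Wnt signalling and act early in T and innate lymphoid lineages.

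Positions are from GENCODE vM21 on mm10. The Id genes are short: Id1 (ENSMUSG00000042745) lies at chr2:152736251-152737410 on the plus strand, Id2 (ENSMUSG00000020644) at chr12:25093799-25097140 on the minus strand and Id3 (ENSMUSG00000007872) at chr4:136143497-136145755 on the plus strand. Of the E-protein genes, Tcf3 (ENSMUSG00000020167) lies at chr10:80409514-80433647 on the minus strand, Tcf4 (ENSMUSG00000053477) at chr18:69343356-69689079 on the plus strand and Tcf12 (ENSMUSG00000032228) at chr9:71842688-72111871 on the minus strand. Tcf7 (ENSMUSG00000000782) lies at chr11:52252371-52283014 on the minus strand and Lef1 (ENSMUSG00000027985) at chr3:131110471-131224356 on the plus strand, where its exons overlap those of Gm43352, so that reads of the pair may not be told apart.

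Totals ran from 50458473 to 102148079 counts per library in the first set and from 26776517 to 78682096 in the second. The targeted genes did not check the labels, since reads outside a deleted part are still counted. Tet2 had a median of 14.2 CPM (counts normalised to library size) in WT LT-HSCs and 21.5 CPM in LT-HSCs labelled Tet2-/-. The Sting gene (Tmem173) ranged from 0 to 45.8 CPM in WT, from 0 to 120.0 CPM in libraries labelled Sting-/- and from 0 to 25.9 CPM in libraries labelled DKO. The CLP libraries held genes of their label and also genes of other cells. Immunoglobulin genes took 26.4% to 47.0% of the counts in WT and 0.084% to 32.5% in Tet2-/- CLPs, and in no other group more than 0.0238%. The CLP libraries held Il7r, the CD127 of the gate (230.8 to 1119 CPM), but also Ncr1, a receptor of natural killer and innate lymphoid cells (56.2 to 1453 CPM). Cd3e of T cells was at 0 in all 8. Rag1 was at 0 in all 4 WT libraries and 0.0593 to 19.3 CPM in Tet2-/-. The CLP marker list had 7 of 8 genes with a median of at least 1 CPM in WT and 8 of 8 in Tet2-/-. The T cell list had 5 of 10 in each, with sums of 202.8 to 411.0 CPM and 150.1 to 601.3 CPM. Its Cd3e, Cd3g and Cd8a had medians under 0.1 CPM in both. Of 13 marker genes of natural killer and innate lymphoid cells, 8 had a median of at least 1 CPM in WT and 10 in Tet2-/- CLPs, and their summed level was 1149 to 1469 CPM and 726.0 to 2938 CPM. Gzma and Gzmb of that list had medians under 0.1 CPM in both genotypes, and Prf1, Eomes and Zbtb16 in WT. Summed myeloid marker genes (9 of CMPs and GMPs) were 5.055 to 3232 CPM in WT and 2.84 to 12670 CPM in Tet2-/- CLPs. The part of other cells in the CLP results was not tested. In bulk RNA, fewer cells of a type and less RNA per cell cannot be told apart.

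Id1 and Id3 were highest in LT-HSCs in WT, whereas Id2 was by far highest in CLPs. By WT median Id1 was lowest in MEPs and Id3 in GMPs, although each of these overlapped the CLPs. Id1 measured 82.2, 96.96 and 246 CPM in the 3 WT LT-HSC libraries against 11.4, 9.37 and 20.7 CPM in ST-HSCs. All LT-HSC libraries lay above all ST-HSC libraries, as 7.36% of the 20006 genes tested did in this contrast. The difference was -3.33 ± 1.09 on the log2 scale (ST-HSC minus LT-HSC, with its standard error), with an edgeR quasi-likelihood adjusted p of 0.378. DESeq2 gave an adjusted p of 0.021 for the same contrast. In Tet2-/- mice the order was repeated, at 35.4, 37.7, 79.9 and 13.4 CPM in LT-HSCs and 3.40, 2.76, 9.82 and 5.49 CPM in ST-HSCs, with no overlap (2.2% of all genes), a difference of -2.93 ± 1.38 and an edgeR adjusted p of 0.567. Between ST-HSCs and CMPs Id1 overlapped in both genotypes, and its lowest group was the MEPs, with medians of 2.1 CPM in WT and 0.527 CPM in Tet2-/-. No gene of the 8 passed the threshold between ST-HSCs and LT-HSCs (edgeR, adjusted p of at most 0.05 and at least 2-fold; 0.175% of genes in WT and 0.118% in Tet2-/-). With an unadjusted p the count was 1 in each genotype (7.32% and 7.48% of all genes), and DESeq2 called 1 in WT and 0 in Tet2-/-.

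In WT, Id3 marked the split between the myeloid progenitors. It measured 52.5, 44.1, 37.3 and 43.3 CPM in WT CMPs, 0.842, 1.91, 0.168 and 0.634 CPM in WT GMPs and 11.9, 11.3, 16.6 and 10.6 CPM in WT MEPs. The 3 populations did not overlap, and 11.9% of all genes had every GMP library below every CMP library. From CMP to GMP Id3 fell by 5.57 ± 1.20 on the log2 scale (47.4-fold, edgeR adjusted p = 0.00878), the only gene of the 8 called there against 3.15% of all genes, and it was called without any one of the 8 libraries. With only these populations fitted, another of the 8 was called as well. In Tet2-/- cells the GMPs again lay below all CMPs (15.0% of all genes), at 0.622, 0.288, 0.717 and 0.0673 CPM against 14.7, 4.65, 11.6 and 2.27 CPM. That difference was -4.14 ± 1.32 with an edgeR adjusted p of 0.0837, so that no gene of the 8 was called in this contrast (3.08% of all genes). An unadjusted p (11.8% of all genes) or DESeq2 called 1, Id3 itself. The Tet2-/- MEPs, at 4.26, 2.07, 2.01 and 0.931 CPM, overlapped the Tet2-/- CMPs. Between CMPs and MEPs Id3 differed by -1.86 ± 1.02 in WT, with an edgeR adjusted p of 0.306, although all MEP libraries were lower (14.1% of all genes). The number of the 8 called in that contrast depended on the fit, and DESeq2 called more.

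Id2 was a CLP gene in these libraries. In WT it measured 475, 531, 1348 and 951 CPM in CLPs against 17.2, 9.59 and 19.3 CPM in ST-HSCs and 2.35, 18.0, 1.04 and 5.05 CPM in GMPs. In Tet2-/- CLPs it measured 2187, 494, 752.5 and 495.5 CPM. Every CLP library of either genotype lay above every library of the other 5 populations. Id2 was higher in CLPs than in ST-HSCs by 5.72 ± 1.33 in WT and 5.72 ± 0.60 in Tet2-/- (edgeR adjusted p = 0.00308 and 2.01e-06), a 52.8-fold difference in each. All libraries were higher in CLPs for 9.95% of all genes in WT and 6.89% in Tet2-/-. It was 1 of 4 genes called in that contrast in each genotype, where 24.5% of all genes were called in WT and 20.1% in Tet2-/-. Among the other populations the LT-HSCs came next, at 18.2, 35.1 and 39.6 CPM in WT, and overlapped the ST-HSCs. From ST-HSC to CMP Id2 fell by 2.50 ± 0.52 in Tet2-/- cells (edgeR adjusted p = 0.00956, 1 of 8 genes against 3.33% of all). In WT all CMPs were also lower (13.1% of all genes), at 1.23, 3.50, 6.13 and 6.33 CPM, with a difference of -1.83 ± 1.03 and an edgeR adjusted p of 0.333. None of the 8 was called there in WT by edgeR with adjustment (5.0% of all genes) or without it (15.0%), or by DESeq2.

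The bases just before the start of a gene are where many factors bind, and those of Id2 and Id3 are given here as a description. Their part in the levels was not tested. The tables of RefSeq promoters on GRCm38.p6 matched 6 of the 8 genes, all but Id1 and Tcf4. The 250 bases before the start are printed from 5′ to 3′ on the gene's strand, Id3 at chr4:136143572-136143821 (plus strand) and Id2 at chr12:25096093-25096342 (minus strand). The starts are those of RefSeq. The GENCODE limits of both genes begin further upstream, so both stretches lie within the gene limits given above. Capitals mark 4 motifs searched on both strands: the E-box CANNTG, the GC-rich SMAD element GGCGCC, the CCAAT box CCAAT and the TCF/LEF motif CTTTGA.
Id3: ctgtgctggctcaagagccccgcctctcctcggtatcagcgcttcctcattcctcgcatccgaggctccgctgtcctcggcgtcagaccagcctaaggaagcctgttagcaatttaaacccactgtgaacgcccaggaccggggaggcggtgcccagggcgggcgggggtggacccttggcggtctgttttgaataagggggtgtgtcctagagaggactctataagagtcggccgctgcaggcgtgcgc
Id2: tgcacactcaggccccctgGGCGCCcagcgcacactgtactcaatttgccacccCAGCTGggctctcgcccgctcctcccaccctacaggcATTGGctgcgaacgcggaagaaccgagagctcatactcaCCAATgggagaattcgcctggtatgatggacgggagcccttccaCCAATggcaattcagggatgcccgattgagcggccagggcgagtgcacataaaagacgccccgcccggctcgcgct
The Id3 stretch held none of the 4. The Id2 stretch held an E-box that begins 196 bases before the start, a GGCGCC at 231 and CCAAT letters at 159, 120 and 76, the first of them on the other strand. Of 32851 promoter entries of all genes, 66.2% held an E-box, 9.59% GGCGCC, 33.8% CCAAT and 13.8% CTTTGA. A match is a description of letters and not a site that was tested.

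Between the genotypes, Id3 was lower in CMPs and MEPs of the Tet2-/- group. In CMPs Id3 measured 14.7, 4.65, 11.6 and 2.27 CPM in Tet2-/- cells against 52.5, 44.1, 37.3 and 43.3 CPM in WT. The highest Tet2-/- library lay well below the lowest WT library, and 8.97% of all genes had every Tet2-/- library below WT. Id3 fell by 2.43 ± 0.50 on the log2 scale (5.41-fold, edgeR adjusted p = 0.0196), and the two-sided exact permutation p was 0.0286, the smallest that 4 against 4 libraries can give. It was the only one of 7 genes tested that was called, against 4.57% of all genes (3.92% lower). In MEPs Id3 measured 4.26, 2.07, 2.01 and 0.931 CPM in Tet2-/- cells against 11.9, 11.3, 16.6 and 10.6 CPM in WT. Again all Tet2-/- libraries lay below all WT libraries, as for 8.52% of all genes, and Id3 fell by 2.44 ± 0.43 (5.41-fold, edgeR adjusted p = 0.00971, exact permutation p = 0.0286). The call in MEPs held without any one of the 8 libraries, with adjusted p between 0.00168 and 0.0381 in edgeR. The call in CMPs held in 6 of 8 and was lost without Tet2-/- replicate 3 or WT replicate 5, where adjusted p reached 0.056. With all 46 libraries in one fit, which shares one spread over the populations, neither was called (-2.41 with edgeR adjusted p of 0.506 in CMPs, -2.43 with 0.555 in MEPs).

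**Figure D1:**
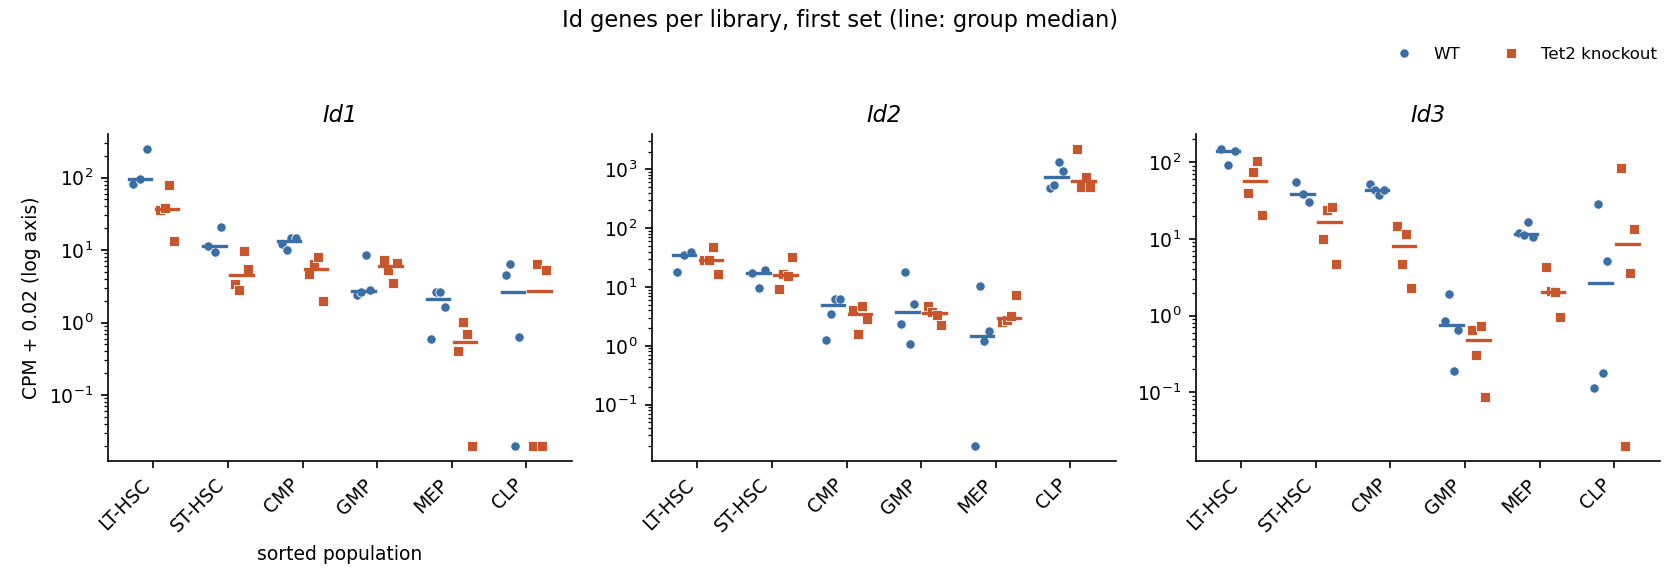
Id1, Id2 and Id3 in each library of the first set, as CPM plus 0.02 on a log axis, by sorted population, with WT as blue circles, Tet2-/- (Tet2 knockout) as orange squares and the group median as a line. In CMPs the 4 Tet2-/- values of Id3 sit between 2.27 and 14.7 CPM, below the 4 WT values between 37.3 and 52.5 CPM, and Id2 is above 474 CPM only in CLPs.

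In the stem cells the direction of Id3 and Id1 was the same but no difference passed the threshold. Id3 in ST-HSCs measured 9.82, 23.8, 26.1 and 4.64 CPM in Tet2-/- cells against 55.1, 39.1 and 30.6 CPM in WT. All Tet2-/- libraries were lower, as were 4.86% of all genes, with a difference of -1.34 ± 0.56, an edgeR adjusted p of 0.783 and an exact permutation p of 0.0857. In LT-HSCs Id3 measured 39.2, 74.9, 103 and 20.4 CPM against 148, 91.2 and 142 CPM, which overlapped (-1.09 ± 0.48, edgeR adjusted p of 0.984). Id1 in LT-HSCs did not overlap, at 35.4, 37.7, 79.9 and 13.4 CPM in Tet2-/- cells against 82.2, 96.96 and 246 CPM, where 3.96% of all genes had every Tet2-/- library below WT. Its difference was -1.75 ± 0.58 (3.37-fold lower, edgeR adjusted p of 0.743, exact permutation p of 0.0571). In CMPs all Tet2-/- libraries of Id1 lay below WT as well, at 4.60, 6.34, 7.92 and 1.96 CPM against 12.1, 10.2, 14.8 and 14.5 CPM, in the same share of all genes as for Id3. That difference was -1.32 ± 0.39 with an edgeR adjusted p of 0.0851 and an exact permutation p of 0.0286, and DESeq2 called it with an adjusted p of 0.0129. In ST-HSCs Id1 overlapped by 1 library (-1.34 ± 0.56, edgeR adjusted p of 0.774), and in MEPs, where WT reached only 2.62 CPM, it differed by -1.82 ± 1.11 with an adjusted p of 0.495.

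No gene of the 8 was called in LT-HSCs, ST-HSCs or GMPs by edgeR or by DESeq2, where edgeR called 0.0245%, 0.0185% and 4.37% of all genes. With an unadjusted p of 0.05 and 2-fold the counts were 1, 2 and 0 (3.35%, 3.65% and 7.06% of all genes), and the genes were Id1 in LT-HSCs and Id1 and Id3 in ST-HSCs. Id3 was under 2 CPM in all GMP libraries, and its difference there was -1.04 ± 0.84 (edgeR adjusted p of 0.611). Id1 in GMPs measured 7.31, 5.33, 3.48 and 6.67 CPM in Tet2-/- cells and 2.36, 2.59, 8.49 and 2.81 CPM in WT, a difference of 0.43 ± 0.45. Id2 did not follow Id1 and Id3: it overlapped between the genotypes in all 6 populations, with differences between -0.93 ± 0.70 in GMPs and 0.28 ± 0.48 in ST-HSCs. A test of whether the genotype effect differed among the 6 populations called 0 of the 8 genes against 2.65% of 22360 genes (edgeR), with adjusted p of 0.63 for Id3 and 1.0 for Id1. An unadjusted p or leaving out WT LT-HSC replicate 3 called 1, Tcf12, and DESeq2 called 0. The Id3 effect in CMPs and MEPs is therefore not shown to differ from that in the other populations.

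**Figure D2:**
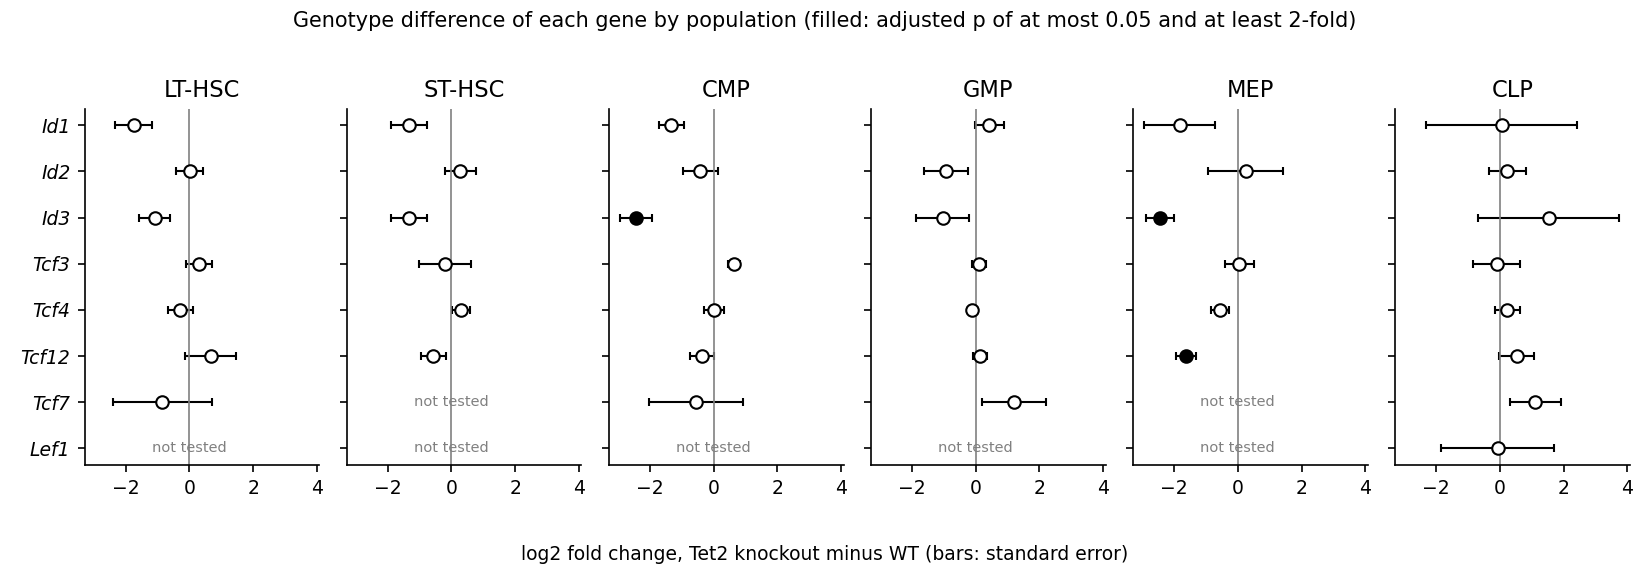
Fitted log2 fold change of each gene between Tet2-/- and WT libraries, with one panel per population, the standard error as a bar and filled points for an adjusted p of at most 0.05 and at least 2-fold. Id3 is filled in CMP (-2.43) and MEP (-2.44) and Tcf12 in MEP (-1.63), and the other points are open.

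Immediate early genes, which respond to the handling of cells, were lower in Tet2-/- CMPs and MEPs, where Id3 was called, and also in GMPs, where it was not. Of 12 such genes, Jun, Junb and Dusp1 among them, 6 were called lower in CMPs, 4 in MEPs and 3 in GMPs (edgeR, against 3.92%, 4.21% and 4.06% of all genes), with a median log2 fold change in CMPs of -1.14 against 0.03 over all genes. Their summed level was 2968 to 4752 CPM in WT and 799.3 to 1817 CPM in Tet2-/- CMPs, 1171 to 1446 CPM against 268.3 to 647.3 CPM in MEPs and 2748 to 3584 CPM against 915.9 to 1841 CPM in GMPs. In CLPs the sums did not overlap either (19490 to 30850 CPM against 4946 to 11410 CPM), but no gene of the list was called. In LT-HSCs and ST-HSCs the sums overlapped and none was called, although Atf3 differed by -1.74 and -2.46 there (edgeR adjusted p of 0.452 and 0.221). Base composition moved too. In CMPs 16.9% of the genes with the most GC (53.8% to 78.3%) were at least 2-fold lower than WT, against 7.09% of as many genes with the least GC (17.1% to 44.3%), and in MEPs these shares were 15.6% and 8.55%. The longest transcripts of Id3 and Id1 have 55.6% and 54.7% GC and lie in that upper band, while that of Tcf12 has 44.4%. Among the markers of neighbouring cells, Epor, Car1 and Cpa3 were higher and Klf1, Gp1bb and Ighm lower in Tet2-/- CMPs, and Klf1, Gp1bb, Hba-a1 and Hba-a2 were lower in Tet2-/- MEPs. Summed over its 8 genes, the MEP marker list was 698.4 to 1697 CPM in WT and 2937 to 5806 CPM in Tet2-/- CMPs. In CMPs the sums of the mast cell and basophil list (144.1 to 187.6 CPM in WT, 252.1 to 534.0 CPM in Tet2-/-), the CLP list (182.4 to 299.3 CPM, 119.4 to 144.6 CPM) and the T cell list (9.817 to 15.24 CPM, 4.473 to 9.425 CPM) did not overlap either. In MEPs these 4 sums overlapped between the genotypes. The part of these shifts in the Id3 result was not tested.

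The E-protein genes were flatter over the populations than the Id genes. Tcf3, which encodes E12 and E47, did not pass the test for any difference among the 6 populations in WT (edgeR adjusted p = 0.0924) or in Tet2-/- cells (0.369). Its group medians ran from 9.91 CPM in LT-HSCs to 25.8 CPM in CLPs in WT. Tcf12, which encodes HEB, passed in Tet2-/- cells (edgeR adjusted p = 0.0215) and did not in WT (0.23), where LT-HSCs were spread from 6.41 to 82.2 CPM. Tcf4, which encodes E2-2, the E protein of plasmacytoid dendritic cells, passed in both genotypes (edgeR adjusted p = 9.13e-05 and 1.1e-05). Of the 8 genes, 6 differed among populations in WT and 7 in Tet2-/- cells, against 44.6% and 40.2% of all genes. Both counts include Tcf7 and Lef1, which outside CLPs lay near the filter on low counts and whose calls are given as no support. Of the remaining 6 genes, 4 passed in WT and 5 in Tet2-/- cells. Leaving out WT LT-HSC replicate 3 brought Tcf12 to an adjusted p of 0.00753 in WT.

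Tcf4 was highest in CLPs and lowest in MEPs. It measured 64.8, 154, 93.1 and 58.7 CPM in WT CLPs, 29.9, 27.0 and 24.8 CPM in WT ST-HSCs and 13.8, 12.6, 15.2 and 28.6 CPM in WT MEPs. The CLPs lay above all other WT libraries. Against the ST-HSCs alone, 9.95% of all genes had every CLP library higher in WT. The sum of 10 dendritic cell marker genes also had its highest group medians of the first set there. It was 206.7 to 435.1 CPM in WT and 92.36 to 163.7 CPM in Tet2-/- CLPs. Klk1, Itgax, Cd209a and Clec9a were under 0.1 CPM at the median in both, and Siglech in Tet2-/- CLPs. The part of dendritic cells in the Tcf4 level was not tested. Tcf4 was higher in CLPs than in ST-HSCs by 1.75 ± 0.35 in WT and 1.70 ± 0.34 in Tet2-/- cells (edgeR adjusted p = 0.00105 and 0.00133). In that contrast 24.5% and 20.1% of all genes were called. From CMP to MEP it fell by 1.64 ± 0.34 in Tet2-/- cells (edgeR adjusted p = 0.00546), from 18.2, 48.3, 42.8 and 40.6 CPM to 10.3, 14.0, 10.5 and 13.2 CPM without overlap (12.1% of all genes). In WT it fell by 1.13 ± 0.31 (edgeR adjusted p = 0.0285), with WT MEP replicate 5 at 28.6 CPM inside the CMP range of 25.7 to 49.5 CPM. That WT call was held in only 3 of 8 fits with a library left out, and adjusted p reached 0.118. It was also lost with the replicate number as a block (edgeR adjusted p of 0.0548). Tcf4 was the 1 gene of the 8 called between MEP and CMP in each genotype, against 6.45% of all genes in WT and 3.62% in Tet2-/- cells. More of the 8 were called at an unadjusted p in both genotypes. In WT that also held for DESeq2 and for a fit of only the populations compared.

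**Figure D3:**
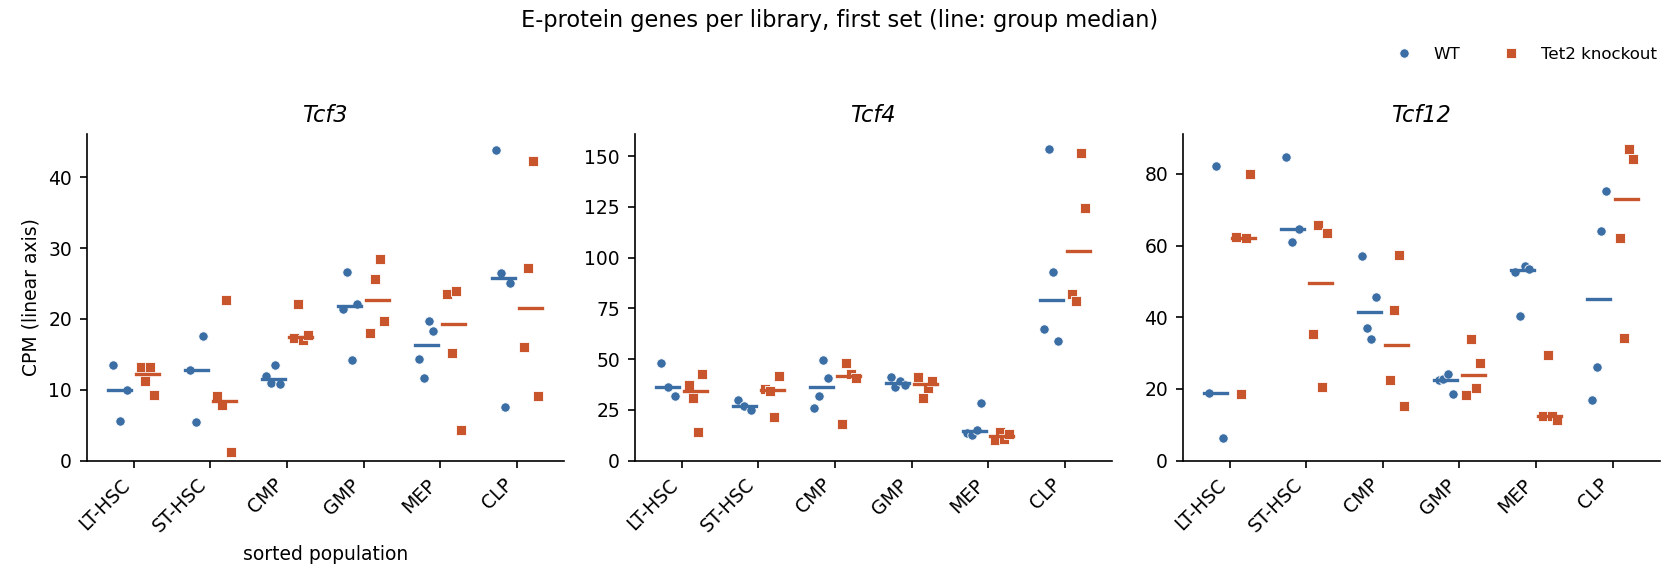
Tcf3, Tcf4 and Tcf12 in each library of the first set, in CPM on a linear axis, by sorted population and genotype, with the group median as a line. In MEPs the 4 WT values of Tcf12 lie between 40.4 and 54.4 CPM and the 4 Tet2-/- values between 11.3 and 29.4 CPM.

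Among the E-protein genes, Tcf12 fell in Tet2-/- MEPs. It measured 12.5, 29.4, 12.4 and 11.3 CPM in Tet2-/- MEPs against 52.8, 40.4, 54.4 and 53.5 CPM in WT. All Tet2-/- libraries lay below the WT range, as for 8.52% of all genes, and replicate 3 of each genotype was the closest to the other group. Tcf12 fell by 1.63 ± 0.31 (3.09-fold, edgeR adjusted p = 0.0137, exact permutation p = 0.0286). Id3 and Tcf12 were thus 2 of the 6 genes tested in MEPs that were called, both lower, against 4.36% of all genes (4.21% lower). The call held without any one of the 8 libraries, with edgeR adjusted p between 0.00047 and 0.0466, but not with all 46 libraries in one fit (-1.61, adjusted p of 0.145). In the other 5 populations Tcf12 overlapped between genotypes. Tcf3 went the other way in CMPs, at 17.3, 22.1, 17.0 and 17.7 CPM in Tet2-/- cells against 11.9, 10.98, 13.4 and 10.8 CPM in WT. All 4 Tet2-/- libraries were above WT, as were 6.82% of all genes. The difference of 0.64 ± 0.18 was under 2-fold and had an edgeR adjusted p of 0.0719 and an exact permutation p of 0.0286. Tcf4 overlapped between the genotypes in all 6 populations, with differences between -0.56 ± 0.29 in MEPs and 0.31 ± 0.28 in ST-HSCs.

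Tcf7 and Lef1 were found almost entirely in CLPs. Tcf7 measured 30.9, 45.8, 83.0 and 95.4 CPM in WT CLPs and 388, 82.0, 63.3 and 24.2 CPM in Tet2-/- CLPs, and at most 1.67 CPM in any other library of the first set. Lef1 measured 0, 48.0, 16.2 and 64.9 CPM in WT CLPs and 85.3, 23.7, 0.237 and 16.6 CPM in Tet2-/- CLPs, and at most 0.613 CPM elsewhere. So WT CLP replicate 2 had Tcf7 without Lef1. Both were among the 4 genes called between CLPs and ST-HSCs, with Id2 and Tcf4. Neither passed the filter on low counts among the ST-HSC libraries alone and both passed it with the CLPs in the fit, so these calls are given as no support and the levels stand as a description. Against GMPs the CLPs had 5 genes called in each genotype, Id2, Id3, Tcf4, Tcf7 and Lef1, where 19.9% of all genes were called in WT and 9.71% in Tet2-/- cells. The calls of Tcf7 and Lef1, at most 0.72 CPM in any GMP library, are again given as no support. The Id3 calls were not stable. Id3 in CLPs was 0.0944, 28.3, 0.157 and 5.06 CPM in WT and 83.7, 0, 3.62 and 13.6 CPM in Tet2-/-, and without WT replicate 3 its difference went from 3.18 to 0.94 (edgeR adjusted p of 0.432). The WT call was also lost without GMP replicate 2, 4 or 5, with no filter, with the replicate number as a block (edgeR adjusted p of 0.0794) and with only these 2 populations fitted (0.27). Without Tet2-/- replicate 2 it went from 5.74 to 3.602 (adjusted p of 0.0544), and with only the 2 populations fitted that call was lost too (0.173).

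**Figure D4:**
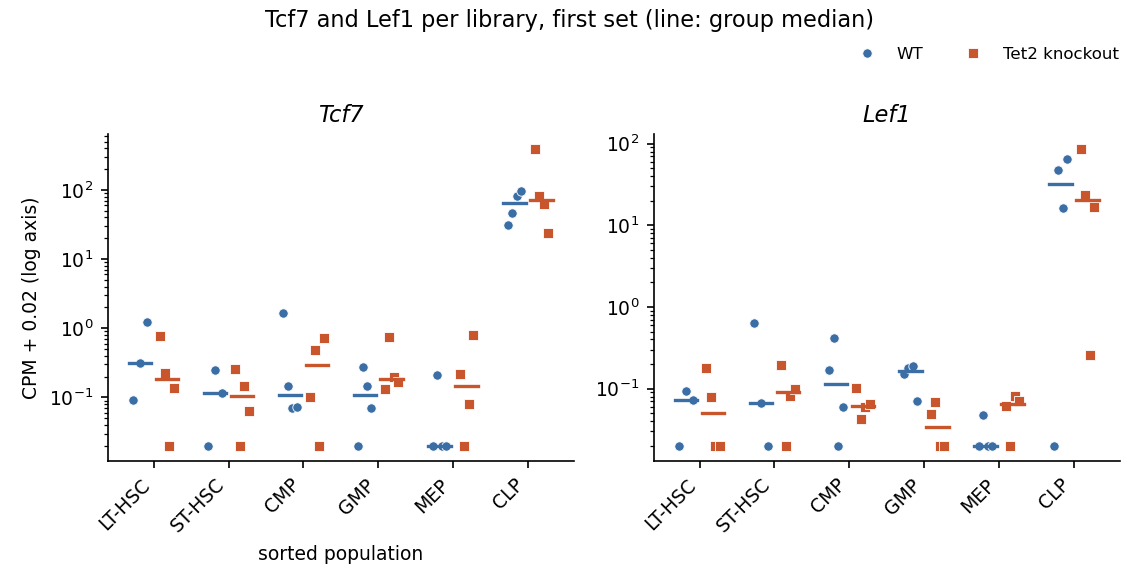
Tcf7 and Lef1 in each library of the first set, as CPM plus 0.02 on a log axis, by sorted population and genotype, with the group median as a line. Outside CLPs no Tcf7 value exceeds 1.67 CPM and no Lef1 value exceeds 0.613 CPM, while Tcf7 in CLPs ran from 24.2 to 388 CPM.

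The CLP gene pattern varied with single libraries within a genotype. Tet2-/- replicate 2 held the most Id2 (2187 CPM), Id3 (83.7 CPM), Tcf7 (388 CPM) and Lef1 (85.3 CPM) of its group. The same library had the most Ncr1 (1453 CPM) and the smallest share of immunoglobulin counts (0.084%). No gene of the 8 was called between the genotypes in CLPs by edgeR, by DESeq2 or at an unadjusted p, against 0.00766% of all genes (edgeR) and 2.98% at an unadjusted p. Without that library the fitted difference of Id3 turned from 1.53 ± 2.21 to -0.60, that of Id2 from 0.24 ± 0.58 to -0.51 and that of Tcf7 from 1.11 ± 0.80 to -0.16. The intervals of these differences are wide, so the genotypes are not shown to be alike. With immunoglobulin genes left out of the totals, an alternative chosen after seeing the data, the counts of genes called in CLP contrasts stayed at 0, 4, 4, 5 and 5.

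The genes whose levels ran most like each member over the 46 libraries differed by member. Tcf7 ran closest with Xcl1, Il2rb and Ncr1 (Pearson r = 0.977, 0.976 and 0.97 of log2 CPM among 8871 genes), a chemokine and receptors of natural killer cells. Id2 ran closest with Gimap3, Cd74 and Gimap4 (0.938, 0.933 and 0.931), and Tcf4 with Irf5, Gramd3 and Dgka (0.857, 0.855 and 0.855). For Id3 these were Cmas, Ctla2a and Rcn3 (0.816, 0.813 and 0.796), and for Id1 Cd63, Anxa5 and Ifitm3 (0.792, 0.775 and 0.768). Tcf12 had a weaker closest neighbour, Zfand6 at 0.557. Lef1 ran closest with Tcf7 at 0.857, which came to 0.0988 over the 38 libraries without CLPs. Likewise Id2 went from 0.865 to 0.065 with Tcf7 and from 0.683 to 0.182 with Tcf4. The neighbours of Tcf7, Id2 and Tcf4 were not read without CLPs, so their values may restate CLPs against the rest. Id1 and Id3 had a correlation of 0.56 over all 46 libraries and 0.678 without CLPs. These are descriptions over libraries that share their population, their genotype and their scaling.

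Levels of different genes were compared per kilobase, with the summed length of all annotated exons. In LT-HSCs Id1 and Id3 made up most of the Id level, at 47.2% and 44.7% in WT, from medians of 83.6 and 79.1 CPM per kb. In CMPs and MEPs Id3 led with 64.5% and 72.9% in WT, and its share in Tet2-/- cells was 42.6% and 40.6%. In CLPs Id2 alone made 98.8% in WT and 97.3% in Tet2-/-. On this scale Tcf3 made 65.4% and 65.9% of the E-protein level in GMPs of WT and Tet2-/-. The order of the E proteins depends on the lengths used, and without division by length the GMP median of Tcf4 in WT (38.2 CPM) was above that of Tcf3 (21.8 CPM). Tcf12 went from 42.9% of the E-protein level in WT MEPs to 13.3% in Tet2-/- MEPs.

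The ratio of the summed Id level to the summed E-protein level, per kilobase and as log2, placed the WT populations in 3 pairs, LT-HSCs with CLPs, ST-HSCs with CMPs and GMPs with MEPs, which overlapped within a pair and not between pairs. In WT it was 4.22 to 6.25 in LT-HSCs, 2.19 to 2.43 in ST-HSCs, 2.31 to 2.47 in CMPs, -1.25 to 0.272 in GMPs, -0.167 to 1.1 in MEPs and 3.79 to 5.88 in CLPs. On this per-kilobase scale the summed Id level was above the summed E-protein level in stem cells, CMPs and CLPs. The 2 sides were near parity on it in GMPs and MEPs. In Tet2-/- CMPs the ratio was -0.74 to 1.11, with no library in the WT range, and its median of 0.246 compared with 2.44 in WT. In Tet2-/- ST-HSCs it was 1.06 to 1.93, also below all WT libraries. The genotypes overlapped in LT-HSCs, GMPs, MEPs and CLPs, with Tet2-/- ranges of 1.72 to 4.23, -1.01 to 0.268, -1.24 to 0.598 and 3.85 to 6.43. No test was made of this ratio, since it is built from genes already tested one by one. Its level depends on the lengths used, and without division by length only LT-HSCs and CLPs stayed above 0 in the first set. From means of log2 levels the WT medians were 4.18 in LT-HSCs, 2.31 in ST-HSCs, 1.82 in CMPs and 0.781 in CLPs. On that measure the CLPs did not pair with the LT-HSCs.

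**Figure D5:**
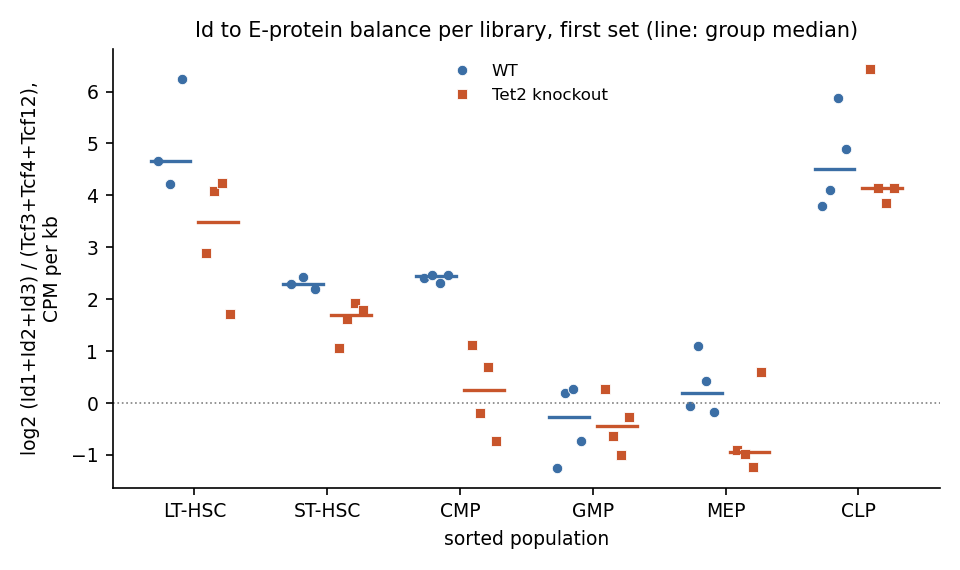
Log2 of the summed CPM per kb of Id1, Id2 and Id3 over that of Tcf3, Tcf4 and Tcf12 in each library of the first set, by sorted population and genotype, with the group median as a line and a dotted line at equal levels. The 4 Tet2-/- CMP values run from -0.74 to 1.11 and the 4 WT CMP values from 2.31 to 2.47.

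Partners, targets and inputs of these factors were read from lists of related genes. Of the basic helix-loop-helix partners and their complex, 3 of 14 genes tested were called lower in Tet2-/- CMPs and none higher, against 3.92% of all genes called lower, with a median log2 fold change of -0.96 against 0.03 over all genes. They were Lyl1, an E-protein partner in stem cells (6.78 ± 6.13 CPM in Tet2-/- against 71.1 ± 13.5 CPM in WT, SD, 4 libraries each, edgeR adjusted p = 0.0066), the Notch target Hes1 (-3.01, adjusted p = 0.00342) and Gata2 (-2.86, adjusted p = 0.00944). In GMPs 3 of 13 were lower (4.06% of all genes), Lmo1 (-3.88), Cbfa2t2 (-1.44) and Gata2 (-1.13), and in MEPs 2 of 12 (4.21%), Lyl1 (-2.62, edgeR adjusted p = 0.0317) and Hes1 (-2.20, adjusted p = 0.0282). Of the targets of E proteins, 2 of 18 were lower in CMPs and 2 of 16 in MEPs, Hes1 and the chemokine receptor gene Cxcr4 in each, and none was higher. Cxcr4 fell by 1.20 ± 0.21 in CMPs and by 1.19 ± 0.25 in MEPs. The longest transcript of Lyl1 has 62.6% GC and lies in the upper band given above, while that of Bambi, named next, has 44.0%. The part of the shifts in immediate early genes, base composition and markers in these list results was not tested.

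In the BMP, TGF-beta and SMAD list, which holds the known inputs of Id1 and Id3, 2 of 23 genes were called lower in Tet2-/- CMPs (3.92% of all genes), 1 of 24 in GMPs and 1 of 21 in MEPs, the latter pair near the 4.06% and 4.21% of all genes called lower. Bambi, a decoy receptor of this pathway, was lower in all 3, by 3.65 ± 0.31 in CMPs (2.21 ± 0.77 against 27.7 ± 2.71 CPM, SD, edgeR adjusted p = 0.000158), by 2.60 ± 0.23 in GMPs and by 3.19 ± 0.46 in MEPs. Smad7, an inhibitor that the pathway itself induces, was lower in CMPs by 1.73 ± 0.42 (edgeR adjusted p = 0.0409). The median of the list was -0.10 in CMPs and -0.0043 in MEPs, close to the 0.03 and 0.05 of all genes. Of the Wnt and TCF/LEF list, 0 of 30 genes were called in CMPs and 0 of 27 in MEPs by edgeR, and in GMPs 1 of 31 was lower (Tle5, -1.46 ± 0.18) and 1 higher (Rnf43), where 4.57%, 4.36% and 4.37% of all genes were called. With lists of this size these counts are near those shares. None of the 4 lists had a gene called in LT-HSCs, ST-HSCs or CLPs, where edgeR called 0.0245%, 0.0185% and 0.00766% of all genes. The fourth Id gene, Id4, did not pass the filter on low counts in any Tet2 comparison.

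In the second set, scaled on its own, the lowest Id1 values were those of the libraries labelled DKO, and no difference passed the threshold. Tet2 itself did not check these labels, at 0 to 25.0 CPM in WT, 1.47 to 41.5 CPM in Sting-/- and 1.29 to 42.4 CPM in DKO. Id1 measured 6.55, 38.9 and 61.1 CPM in libraries labelled DKO, 92.0, 184 and 173 CPM in WT and 135, 182 and 410 CPM in libraries labelled Sting-/-. The DKO libraries lay below every other library. Against WT the difference was -2.15 ± 0.83 (edgeR adjusted p of 0.301, exact permutation p of 0.1, the smallest for 3 against 3), where 13.8% of all genes had every DKO library below WT. Against Sting-/- it was -2.78 ± 0.85 (edgeR adjusted p of 0.369), where 10.6% of all genes did. Id3 overlapped between DKO and WT, at 38.6, 109 and 125 CPM against 105, 80.8 and 72.7 CPM. In Sting-/- it was 163, 163 and 169 CPM, above all WT libraries, as were 5.96% of all genes (0.96 ± 0.37, edgeR adjusted p of 0.984). All DKO libraries were below Sting-/- for Id3, as were 10.6% of all genes (-0.87 ± 0.53, edgeR adjusted p of 0.859, exact permutation p of 0.1). Id2 in Sting-/- was also above all WT libraries, at 155, 243 and 299 CPM against 37.2, 141 and 17.6 CPM (1.86 ± 0.75, edgeR adjusted p of 0.991). Of the immediate early genes, Junb (-6.40, edgeR adjusted p = 0.00854) and Ier2 (-4.91, 0.00341) fell in DKO against WT, and Junb against Sting-/- (-4.71, 0.0475). Their summed level was 8234 to 19210 CPM in WT, 9171 to 11120 CPM in Sting-/- and 5021 to 11750 CPM in DKO, and their part in the Id values was not tested.

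Among the E-protein genes of the second set, Tcf4 measured 132, 191 and 136 CPM in DKO against 74.0, 46.9 and 50.4 CPM in WT, without overlap. Its difference was 1.34 ± 0.49 with an edgeR adjusted p of 0.274, where 11.3% of all genes had every DKO library above WT, and DESeq2 called it (adjusted p of 0.00866). In Sting-/- Tcf4 was spread from 10.5 to 193 CPM. Tcf12 measured 35.03, 27.6 and 143 CPM in WT, 23.4, 16.6 and 4.56 CPM in Sting-/- and 0, 5.42 and 12.1 CPM in DKO, so that WT lay above both, as for 7.53% of all genes in Sting-/-, with edgeR adjusted p of 1.0 and 0.555. Tcf7 was at 0 in 8 of the 9 libraries and Lef1 in all 9, and 6 of the 8 genes were tested. None was called by edgeR in DKO against WT (0.657% of all genes), in Sting-/- against WT (0.0%) or in DKO against Sting-/- (0.159%). With an unadjusted p the counts were 2, 1 and 1 (11.3%, 3.58% and 7.01% of all genes), and DESeq2 called 1, 0 and 0. The 3 comparisons share libraries and are not independent of each other. The Y-linked gene Ddx3y was at 0 to 0.059 CPM in WT, 20.6 to 160.0 CPM in Sting-/- and 59.6 to 157 CPM in DKO, so sex and genotype cannot be told apart in either comparison with WT.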

How the data were processed

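Bone marrow populations were sorted by flow cytometry and profiled by full-length RNA-seq with a modified SMART-Seq2 protocol in 55 libraries. Per the study's methods and the submitters' processing notes, reads were trimmed with Trim Galore (0.6.7 in the notes) and aligned with HISAT2 to mm10 (mm9 is listed too), and the authors used DESeq2. The counter and annotation are not given in the sources used here, so whether counting used strand is unknown. The authors deposited raw counts per gene in 2 tables, from which 2 broken lines of the second were left out.

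The 8 genes and the lists of related genes were chosen with earlier results of these data known. Counts were tested in edgeR 4.0.16 (R 4.3.3) by the quasi-likelihood test with filterByExpr, TMM scaling and Benjamini-Hochberg adjustment over all genes tested, and a call needed an adjusted p of at most 0.05 and 2-fold. A genotype comparison used the libraries of its population, and population contrasts used the 6 populations of one genotype. CPM were computed with TMM factors over each set. Values per kilobase used GENCODE vM21 exon lengths (first set) or the length column of the second table. Two-sided exact permutation tests used log2(CPM + 0.5). Beside the 8 genes, up to 3 called genes per list and comparison are named, those of largest fold with a mean of at least 5 CPM, and the 3 genes most correlated with each member. The genes most correlated with Tcf3 are not reported here. The scripts were tested on simulated data. Alternatives were DESeq2 1.42.0, RLE scaling, no filter, the replicate number as a block, other groupings in the fit, an unadjusted p, each library left out, and immunoglobulin genes left out. Python 3.11.15, numpy 2.4.6, pandas 2.3.3 and matplotlib 3.10.9 were used. PCR reads without molecular identifiers are not independent molecules, so counts cover counting error only.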

Additional observations from a re-analysis of the deposited data

Results flagged for a closer look

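Of 80 pairs of a gene and a group of 4 libraries checked, 14 had 1 library apart from the other 3, where chance gives about 1 in 20 for values with a normal spread. That rate does not apply to groups with most libraries at or near 0, such as Tcf7 and Lef1 in WT MEPs. Of these, 3 were the same library, Tet2-/- CLP replicate 2, with 2190 CPM of Id2 (494 to 753 in the others), 83.7 CPM of Id3 (0 to 13.6) and 388 CPM of Tcf7 (24.2 to 82.0). In MEPs replicate 3 stood apart for Tcf12 in both genotypes, at 40.4 CPM in WT (52.7 to 54.4) and 29.4 CPM in Tet2-/- (11.3 to 12.5). WT MEP replicate 3 also had the most Id2 (10.3 CPM, others 0 to 1.73), Tcf7 (0.19 CPM, others 0) and Lef1 (0.0272 CPM, others 0). Tet2-/- MEP replicate 5 had 7.19 CPM of Id2 (2.51 to 3.22), and WT MEP replicate 5 had 28.6 CPM of Tcf4 (12.6 to 15.2). Among CMPs, WT replicate 2 had 1.67 CPM of Tcf7 (0.0503 to 0.127) and Tet2-/- replicate 3 had 22.1 CPM of Tcf3 (17.0 to 17.7). Among GMPs, WT replicate 4 had 8.49 CPM of Id1 (2.36 to 2.81) and Tet2-/- replicate 3 had 0.72 CPM of Tcf7 (0.113 to 0.176). The causes were not tested.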

How the results depend on the processing

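Each group has 3 or 4 libraries, and Tcf7 and Lef1 outside CLPs rest on few counts. Counts are of the 8 genes called, with the value of the reported fit in brackets.

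DESeq2 gave 2 for Tet2-/- against WT in CMPs (1), 1 for DKO against WT (0), 1 for ST-HSC against LT-HSC in WT (0), 2 for MEP against CMP in WT (1) and 1 for GMP against CMP in Tet2-/- (0). All 46 libraries in one fit gave 0 for CMPs (1) and 0 for MEPs (2). Fitting only the 2 populations compared gave 2 for GMP against CMP in WT (1), 3 for MEP against CMP in WT (1) and 1 for GMP against CMP in Tet2-/- (0). An unadjusted p gave, for Tet2-/- against WT, 1 in LT-HSCs (0), 2 in ST-HSCs (0) and 2 in CMPs (1). It gave 2 for DKO against WT (0), 1 for Sting-/- against WT (0), 1 for DKO against Sting-/- (0), and 1 each for ST-HSC against LT-HSC in WT and in Tet2-/- (0). It gave 7 for CLP against ST-HSC in WT (4), 4 for MEP against CMP in WT (1), 1 for GMP against CMP in Tet2-/- (0), 3 for MEP against CMP in Tet2-/- (1) and 1 for the genotype effect differing among populations (0). Leaving out 1 library gave 0 to 1 in CMPs, 0 to 1 for MEP against CMP in WT, 3 to 5 for CLP against GMP in WT and 0 to 1 for the effect differing among populations (24 fits drawn). RLE scaling and no filter kept all 24 counts within 1.5 times, and the causes of the other shifts were not tested.

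Replicate numbers did not pair the libraries: correlations of same-numbered WT and Tet2-/- deviations ran from -0.059 to 0.12 in the first set. In the second set those between same-numbered WT, Sting-/- and DKO libraries ran from -0.0727 to 0.03. Populations of one genotype with a shared number had median correlations from 0.0199 to 0.0985, against -0.0193 in WT and -0.0266 in Tet2-/- for unlike numbers. With the replicate block, MEP against CMP in WT had 0 (1), where Tcf4 had an edgeR adjusted p of 0.0548, and the other 23 counts stayed within 1.5 times. Under the block the differences of Id2 in LT-HSCs (-0.26), Tcf4 in CMPs (-0.045), Tcf3 in MEPs (-0.12), Id1 in CLPs (-0.24) and Tcf3 in DKO against WT (0.12) reversed. None of these was called. Called differences lost under the block were Lef1 in CLP against ST-HSC (edgeR adjusted p of 0.0505) and Id3 in CLP against GMP (0.0794), both in WT.

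The Id to E-protein ratio without division by length was, in WT and Tet2-/-, 1.63 and 0.546 in LT-HSCs, -0.608 and -1.32 in ST-HSCs, -0.564 and -2.72 in CMPs, -3.1 and -3.27 in GMPs, -2.41 and -2.84 in MEPs, and 2.26 and 1.63 in CLPs. In the second set it was 0.736 in WT, 2.6 in Sting-/- and 0.771 in DKO. From means of log2 levels it was 1.82 in WT CMPs, -1.03 in Tet2-/- GMPs, 0.781 in WT CLPs and 0.96 in Tet2-/- CLPs. WT LT-HSCs stayed at 4.18, so the WT CLPs no longer paired with them.

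Other reversals were of differences that were not called. Id2 in LT-HSCs was -0.013 with all 46 libraries in one fit, and Tcf4 in CMPs was -0.0020 without the filter. Id3 in DKO against WT was 0.010 in DESeq2, 0.011 with RLE, 0.015 without the filter and 0.077 with all 9 libraries in one fit. With 1 library left out the sign of Tet2-/- against WT changed as follows. In LT-HSCs Id2 ranged from -0.29 to 0.21 and Tcf7 from -1.99 to 0.54. In ST-HSCs Id2 ranged from -0.12 to 0.50 and Tcf3 from -0.94 to 0.18. In CMPs Tcf4 ranged from -0.15 to 0.24 and Tcf7 from -1.25 to 1.75. In GMPs Id2 ranged from -1.29 to 0.30, Tcf3 from -0.045 to 0.22 and Tcf12 from -0.082 to 0.26. In MEPs Id2 ranged from -0.25 to 1.97 and Tcf3 from -0.18 to 0.37. In CLPs Id1 ranged from -0.71 to 0.82, Id2 from -0.51 to 0.56, Id3 from -0.60 to 3.73, Tcf3 from -0.54 to 0.22, Tcf7 from -0.16 to 1.45 and Lef1 from -1.26 to 0.52. In DKO against WT Id3 ranged from -0.29 to 0.38 and Tcf3 from -2.04 to 2.01. In Sting-/- against WT Tcf3 ranged from -0.45 to 2.995 and Tcf4 from -0.39 to 1.27, and in DKO against Sting-/- Tcf3 ranged from -2.82 to 0.33. In CMP against ST-HSC Id1 ranged from -0.32 to 0.31 and Id3 from -0.089 to 0.35 in WT, and Id1 from -0.32 to 0.41 in Tet2-/-. Id1 in CLP against GMP of WT ranged from -1.26 to 0.22, Id3 in CLP against ST-HSC of Tet2-/- from -1.50 to 1.05 and Id1 in GMP against CMP of Tet2-/- from -0.076 to 0.46.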

Other observations

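The lists of partners and targets also differed between populations of one genotype. Of 27 E-protein targets tested, 9 were lower in MEPs than in CMPs and none higher in WT, with a median log2 difference of -1.26 against -0.12 over all genes, of which 6.45% were called in WT and 3.62% in Tet2-/- cells. The lead genes were Irf8 (0.672 ± 0.233 against 68.5 ± 33.5 CPM, SD, edgeR adjusted p = 1.84e-05), Dntt (-6.22, adjusted p = 0.0102) and Flt3 (-6.19, adjusted p = 0.00524), genes of monocyte, lymphoid and multipotent progenitors. In Tet2-/- cells 9 of 27 were lower too, with Flt3 (-6.99) and Irf8 (-5.86) among them. The B-cell receptor gene Cd79a measured 498 ± 156 CPM in WT CLPs and 206 ± 119 CPM in Tet2-/- CLPs, against under 0.2 CPM on average in ST-HSCs, in libraries whose immunoglobulin counts are given above.

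Lyl1, which pairs with E proteins, was low in WT ST-HSCs (4.83 ± 3.13 CPM), high in WT CMPs (71.1 ± 13.5 CPM) and lower in WT MEPs (19.2 ± 9.04 CPM). It was higher in CMPs than in ST-HSCs by 3.87 ± 0.52 (edgeR adjusted p = 8.83e-05) and fell from CMP to MEP by 1.93 ± 0.42 (adjusted p = 0.00544). In Tet2-/- cells Lyl1 was higher in GMPs than in CMPs (55.2 ± 13.4 against 6.78 ± 6.13 CPM, edgeR adjusted p = 0.0263). Bhlhe40, a basic helix-loop-helix repressor, was higher in CLPs than in ST-HSCs by 4.96 ± 0.70 in WT (673 ± 222 against 21.2 ± 5.43 CPM, edgeR adjusted p = 2.62e-05) and by 6.03 ± 1.57 in Tet2-/- cells (adjusted p = 0.00894). Sox4, an HMG-box gene of the Wnt list, was lower in CLPs than in ST-HSCs (36.2 ± 8.54 against 227 ± 32.5 CPM in WT, edgeR adjusted p = 3.07e-08) and lower in MEPs than in CMPs in both genotypes (-1.74 ± 0.20 in WT and -2.33 ± 0.37 in Tet2-/-). Bambi was higher in CLPs than in ST-HSCs by 4.18 ± 0.58 in WT and 2.34 ± 0.75 in Tet2-/- cells (edgeR adjusted p = 2.47e-05 and 0.0308).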
